A study of Mus musculus with 30 samples.

Results

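The transcripts of 8 negative feedback regulators of ERK signalling were described in spermatogonial stem cell (SSC) lines: the MAP kinase phosphatase genes *Dusp4*, *Dusp5* and *Dusp6*, the Sprouty genes *Spry1*, *Spry2* and *Spry4*, and the SPRED genes *Spred1* and *Spred2*. They were selected by symbol, as genes whose FPKM and half-life in both lines can be read as negative feedback output of FGF and GDNF signalling, and all 8 were found among the 13904 genes with an expression value. Of these, 5 were also among the 5806 transcripts with a half-life in each line, and *Dusp4*, *Dusp5* and *Spry1* were not. The list was drawn up with the expression values and half-lives of these lines known. The values below are therefore a description and no test was applied to them.

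SSC lines are cultures of the germline stem cells of the testis, grown on mouse embryonic fibroblast feeders with GDNF, FGF2, EGF and LIF, and derived from young mice of a mixed C57BL/6 and DBA/2J background. Both lines compared carried the *Nanos2* TAG allele, in which V5, Myc, His and EGFP tags are fused to the N terminus of NANOS2, an RNA-binding protein of undifferentiated spermatogonia. Line 4 was *Nanos2* TAG/+ and line 5 was *Nanos2* TAG/TAG, and no line without NANOS2 was among the samples. The study did not compare these lines by genotype. It averaged their RNA-seq values as biological replicates, and it reports that homozygous TAG mice were fertile. RNA-seq of ribosomal RNA-depleted total RNA gave 1 library a line, and SLAM-seq, in which 4-thiouridine is incorporated into RNA and then chased, gave 12 libraries a line over 6 chase times from 0 to 1440 min, from which the authors fitted 1 half-life per transcript and line. According to the labels, RNA for the RNA-seq library was extracted with QIAzol from the TAG/+ line and with Trizol from the TAG/TAG line, whereas the study's methods name QIAzol alone. By the labels, genotype, line and reagent cannot be told apart, and genotype and line cannot in either case. Which expression column belongs to which line was read from the column names alone, and every direction of expression below rests on that reading. Expression was given as FPKM (reads divided by transcript length and by library depth). The library depths recovered from them were 10908790 reads for TAG/+ and 11738620 reads for TAG/TAG.

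GDNF, acting through GFRA1 and RET, and FGF2, acting through FGF receptors, activate the RAS-RAF-MEK-ERK cascade in SSCs and sustain their self-renewal in culture. Active ERK induces transcription of its own antagonists. Dual-specificity phosphatases remove phosphate from ERK itself, whereas Sprouty and SPRED proteins act upstream, between the receptor and RAF. Many transcripts induced by ERK are short-lived, which allows their levels to follow the signal.

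*Dusp6*, *Spry4* and *Spry1* were more than 2-fold more abundant in the TAG/TAG line, and *Spred2* and *Spred1* differed less. *Dusp5* and *Spry2* had nearly the same ratio of TAG/TAG over TAG/+, 0.869 and 0.860, and only that of *Dusp5* lay beyond counting error. *Dusp4* was not detectably different. Summed over the 8 genes, FPKM was 111 in the TAG/+ line and 215 in the TAG/TAG line. *Dusp6* contributed 12.8% of that sum in the TAG/+ line and 38.7% in the TAG/TAG line. FPKM was more than 2-fold higher in the TAG/TAG line for 3 of the 8 genes and more than 2-fold lower for 0 of them, whereas among the 11943 genes tested, which had 50 or more reads in the sum of the libraries, 10.8% were past 2-fold higher and 7.28% past 2-fold lower. Without that filter the shares were 13.5% and 9.59%. At 1.5-fold the count of higher genes was 4, with a background of 20.1% (17.2% lower), and at 4-fold it was 1, *Dusp6*, with a background of 2.96% (1.36% lower). By any size 6 genes were higher in the TAG/TAG line and 2 were lower, and 50% of all tested genes were higher. On the log2(FPKM + 0.1) scale the median difference between the lines was 0.55 over the 8 genes and -0.00051 over all genes tested, whose differences had an SD of 1.02. With 1 library a line these differences have no replicate check, and the intervals given below are 95% exact (Clopper-Pearson) intervals of the ratio of reads, which cover counting error only.

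**Figure D1:**
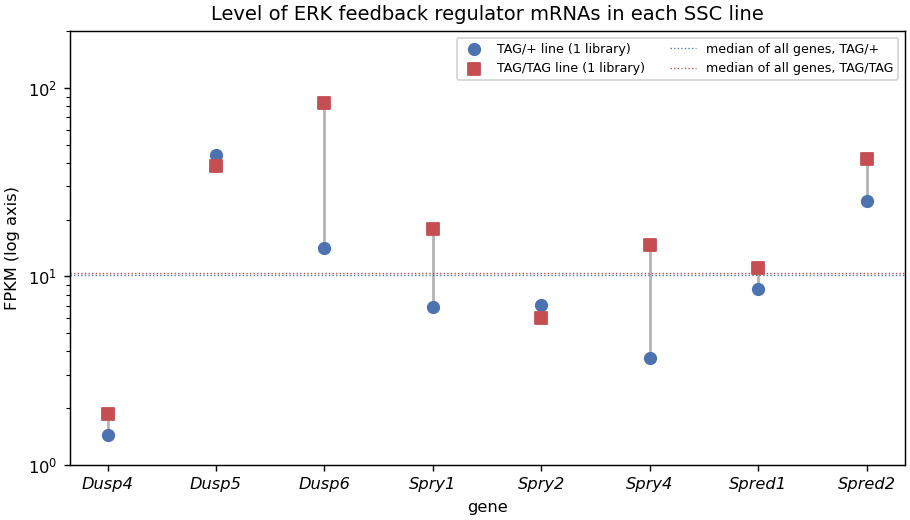
FPKM (log axis) of the 8 feedback regulators in the TAG/+ line (circles) and the TAG/TAG line (squares), 1 library each, with dotted lines at the median of all genes, which was 10.2 and 10.5, respectively. *Dusp6*, *Spry1* and *Spry4* are separated by more than 2-fold, and *Dusp5* and *Spry2* lie slightly lower in the TAG/TAG line.

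The MAP kinase phosphatases spanned the widest range of levels. *Dusp6* (chr10:99263231-99267489, GRCm38, plus strand) encodes a cytoplasmic phosphatase that is selective for ERK. Its FPKM was 14.2 in the TAG/+ line, from 263 reads, and 83.3 in the TAG/TAG line, from 1660 reads. The ratio was 5.87 with an interval of 5.15 to 6.71, the highest of the 8 genes, and the log2 difference was 2.54. *Dusp6* thus moved from the 56.5th to the 88.7th percentile of all genes.

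*Dusp5* (chr19:53529109-53542431, plus strand) encodes a nuclear phosphatase that is also selective for ERK. Its FPKM was 44.3 in the TAG/+ line, from 1196 reads, and 38.5 in the TAG/TAG line, from 1118 reads. The ratio of TAG/TAG over TAG/+ was 0.869, with an interval of 0.800 to 0.943. *Dusp5* was thus slightly lower, by more than counting error, in the library where *Dusp6* was high. Whether it would be lower in another library of that line is unknown. *Dusp5* was the most abundant of the 8 transcripts in the TAG/+ line and the third most abundant in the TAG/TAG line. The FPKM of *Dusp6* was 0.320 times that of *Dusp5* in the TAG/+ line and 2.16 times that of *Dusp5* in the TAG/TAG line, so the order of these phosphatase transcripts was inverted.

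*Dusp4* (chr8:34807297-34819894, plus strand), which encodes a nuclear phosphatase of ERK, JNK and p38, was the least abundant of the 8 in both lines. Its FPKM was 1.44 and 1.87 in the TAG/+ and TAG/TAG lines, from 43 and 60 reads. The interval of the ratio, 0.862 to 1.97, included 1, and a difference between the lines was not detectable at this depth. Over the 3 phosphatases, *Dusp5* made up 73.9% of the summed FPKM in the TAG/+ line and 31.1% in the TAG/TAG line, while *Dusp6* made up 23.7% and 67.4%. The sum itself was 60.0 and 123.7.

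Among the Sprouty genes, whose products bind to adaptors and to RAF and dampen signalling from receptor tyrosine kinases, *Spry4* and *Spry1* were higher in the TAG/TAG line and *Spry2* was not. *Spry4*, on the minus strand of chromosome 18, had an FPKM of 3.68 in the TAG/+ line and 14.7 in the TAG/TAG line, from 191 and 822 reads. The ratio was 4.00 with an interval of 3.41 to 4.71, and on the log2(FPKM + 0.1) scale the difference of 1.97 was just short of 4-fold. *Spry4* was the least abundant Sprouty transcript in the TAG/+ line and lay between the others in the TAG/TAG line.

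*Spry1* (chr3:37639947-37644598, plus strand), an antagonist of RET signalling in the developing kidney, had an FPKM of 6.89 in the TAG/+ line and 17.9 in the TAG/TAG line, from 193 and 540 reads. The ratio was 2.60 with an interval of 2.20 to 3.08. *Spry2* (chr14:105891947-105896819, minus strand), an inhibitor of FGF signalling, gave 160 and 148 reads, which is an FPKM of 7.03 and 6.04. Its ratio was 0.860 with an interval of 0.683 to 1.08, and a difference was not detectable at this depth. *Spry1* and *Spry2* were therefore at nearly the same level in the TAG/+ line, where they contributed 39.1% and 39.9% of the summed Sprouty FPKM, and far apart in the TAG/TAG line, where they contributed 46.3% and 15.6%. The sum of the Sprouty genes was 17.6 in the TAG/+ line and 38.7 in the TAG/TAG line.

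The SPRED genes, which encode membrane-bound relatives of Sprouty that recruit the RAS inactivator neurofibromin, differed less between the lines. *Spred2* (chr11:19924375-20024026, plus strand) had an FPKM of 25.2 in the TAG/+ line and 41.8 in the TAG/TAG line, from 738 and 1316 reads. The ratio was 1.66 with an interval of 1.51 to 1.82, which lies below 2. *Spred1* (chr2:117121374-117182279, plus strand) gave 349 and 486 reads, which is an FPKM of 8.58 and 11.1. The ratio was 1.29 with an interval of 1.13 to 1.49. *Spred2* was the prevailing SPRED transcript in both lines, with 74.6% of the summed SPRED FPKM in the TAG/+ line and 79.0% in the TAG/TAG line.

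**Figure D2:**
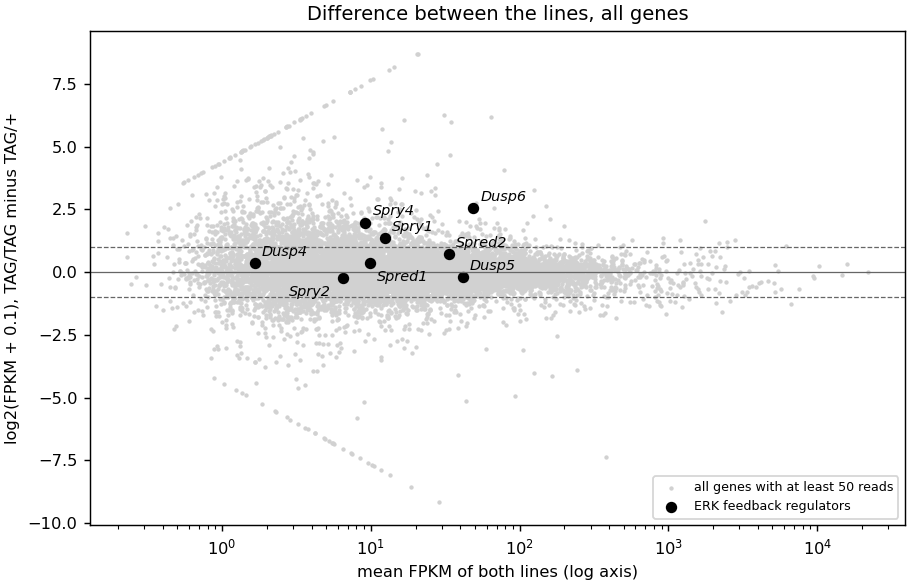
Difference in log2(FPKM + 0.1) between the lines (TAG/TAG minus TAG/+) against mean FPKM of both lines (log axis), with genes of at least 50 reads in grey, feedback regulators in black and dashed lines at 2-fold. *Dusp6* at 2.54, *Spry4* at 1.97 and *Spry1* at 1.37 lie above the upper line, and the diagonal rows of grey points are genes at 0 in 1 of the libraries.

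Ordered by their mean FPKM over the lines, the genes were placed in 3 tiers. *Dusp6* (48.8), *Dusp5* (41.4) and *Spred2* (33.5) were highest, *Spry1* (12.4), *Spred1* (9.84), *Spry4* (9.20) and *Spry2* (6.53) were intermediate, and *Dusp4* (1.65) was lowest. Of neighbours in this order, only *Spred2* and *Spry1*, and *Spry2* and *Dusp4*, had ranges over the lines that did not overlap. Within a tier the ranges of neighbours overlapped. The highest and intermediate tiers were not fully apart. The range of *Dusp6*, 14.2 to 83.3, overlapped those of *Spry1*, 6.89 to 17.9, and *Spry4*, 3.68 to 14.7.

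Levels of other genes of the pathway were examined by role, using lists that were also chosen with results of these data known. Of 11 receptors and co-receptors, 4 were past 2-fold higher in the TAG/TAG line and 0 past 2-fold lower, beside 10.8% and 7.28% of all genes tested, with a median log2 difference of 0.75. *Ret*, the receptor through which GDNF signals, had an FPKM of 73.2 and 181 in the TAG/+ and TAG/TAG lines. *Gfra1*, its co-receptor, had 56.2 and 111. *Fgfr1*, the most abundant FGF receptor transcript, had 107 and 147. The other receptors past 2-fold were *Met*, *Fgfr2* and *Fgfr3*, which were at most 7.12 FPKM, and *Egfr* was lowest with a log2 difference of -0.87.

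Downstream of the receptors, none of 12 adaptors and RAS regulators with a value was past 2-fold in either direction, with a median log2 difference of 0.04 and a range from -0.52 (*Grb2*) to 0.51 (*Shc1*). None of 10 members of the RAS-RAF-MEK-ERK core was past 2-fold, with a median of -0.0056 and a range from -0.37 (*Map2k1*, a MEK gene) to 0.35 (*Hras*). With 10.8% of all genes tested past 2-fold higher and 7.28% lower, few such genes would be counted in lists of this size, and nothing is read from their absence.

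Of 20 other transcripts known to be induced by ERK, with at least 50 reads, 6 were past 2-fold higher and 1 past 2-fold lower in the TAG/TAG line, beside 10.8% and 7.28% of all genes tested, with a median log2 difference of 0.58. The ETS factors *Etv4* and *Etv5*, which are targets of GDNF and FGF signalling, had an FPKM of 43.6 and 46.0 in the TAG/+ line and of 204 and 178 in the TAG/TAG line. *Epha2*, an ephrin receptor gene, had 29.0 and 112, and *Epha4* was the highest by ratio but had only 2 and 48 reads. In the other direction, the cyclin gene *Ccnd1* had 61.9 in the TAG/+ line and 25.2 in the TAG/TAG line. The immediate early genes *Egr1* and *Fos* were not past 2-fold, with an FPKM of 54.4 and 28.8 in the TAG/+ line and of 48.6 and 46.6 in the TAG/TAG line.

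Other members of the gene families were also examined. Of 15 other dual-specificity phosphatase genes with at least 50 reads, 1 was past 2-fold higher and 0 past 2-fold lower, beside 10.8% and 7.28% of all genes tested, with a median log2 difference of 0.37. That gene was *Dusp10*, which encodes a phosphatase of JNK and p38 and had an FPKM of 3.96 and 15.7. *Dusp9*, encoding another ERK phosphatase of the cytoplasm, was the most abundant of them in both lines and had an FPKM of 99.95 and 90.4. It exceeded *Dusp6* and *Dusp5* in both lines. *Spred3* gave 13 and 86 reads, which is an FPKM of 0.631 and 3.88.

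**Figure D3:**
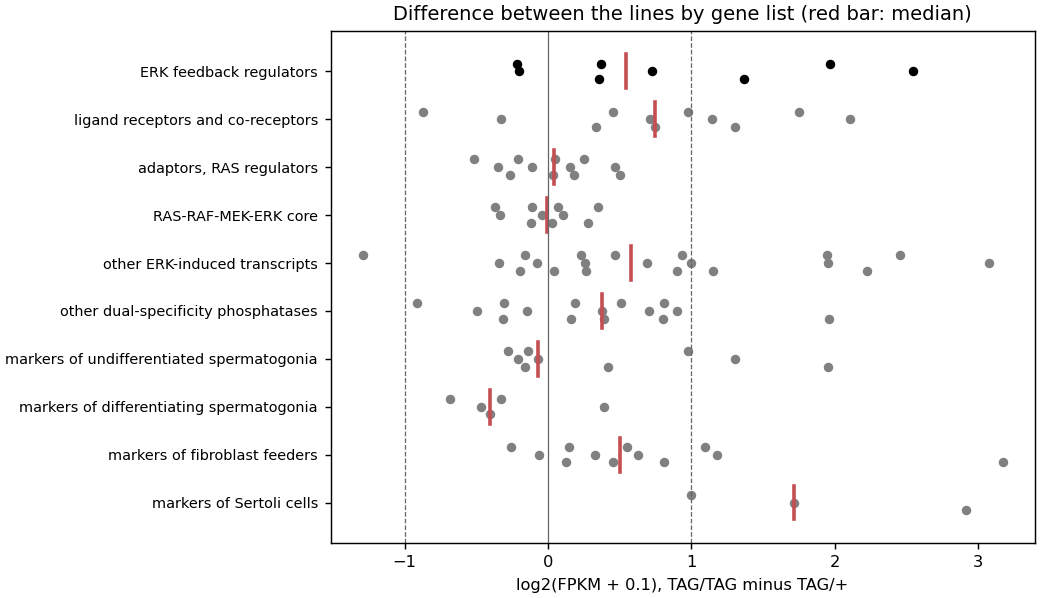
Difference in log2(FPKM + 0.1) between the lines (TAG/TAG minus TAG/+) for each gene with at least 50 reads, by list, with a red bar at the median and dashed lines at 2-fold. All adaptors, RAS regulators, core members and markers of differentiating spermatogonia lie inside the dashed lines. Every other list, those of somatic markers included, has genes beyond the upper one.

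Markers of the cell types that such a culture can hold were checked in the same libraries. Of 9 markers of undifferentiated spermatogonia with a value, none was at 0 in either line, and their summed FPKM was 673 in the TAG/+ line and 926 in the TAG/TAG line. *Nanos2* itself had an FPKM of 27.5 and 23.8. *Ret*, *Gfra1* and *Etv5* are also in this list and, with *Ddx4*, were the only 4 of the 9 higher in the TAG/TAG line. *Zbtb16*, *Id4*, *Nanos2*, *Sall4* and *Lin28a* were lower there. The median log2 difference of the 9 was -0.07, and 2 of them were past 2-fold higher. The 5 markers of differentiating spermatogonia summed to 241 and 177, with none past 2-fold. Of all genes tested, 10.8% were past 2-fold higher and 7.28% past 2-fold lower.

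Most markers of somatic cells were also higher in the TAG/TAG line. Of 12 fibroblast markers with a value, 10 were higher there, beside 50% of all genes tested, and *Col3a1* and *Thbs1* were lower. Past 2-fold higher were 3 (*Pdgfrb*, *Dcn* and *Sparc*), beside 10.8% of all genes tested. None of the 12 was at 0, and their sum was 434 and 588. All 3 Sertoli cell markers with a value, *Wt1*, *Gata4* and *Sox9*, were past 2-fold higher in the TAG/TAG line. Their sum was 5.35 and 26.5, and none was at 0. In the TAG/+ line these markers had few reads, 52 for *Wt1*, 13 for *Gata4* and 99 for *Sox9*. The part of these cells in the levels of *Dusp6*, *Spry1* and *Spry4* was not tested. The study's methods describe RNA from SSCs sorted away from residual feeders, whereas the labels describe feeder depletion. In bulk RNA, a different share of cells of a type and a different amount of RNA per cell cannot be told apart.

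The half-lives placed 4 of the 5 feedback regulators that had one among the short-lived transcripts. Of the 5 with a half-life, all 5 were below the median of all transcripts in the TAG/+ line and 4 in the TAG/TAG line, where the median itself sets a background of 50%. The 4 below the median in both lines compare with 39.8% of all transcripts. In each line 4 of the 5 were below the first quartile, which was 162 min in the TAG/+ line and 159 min in the TAG/TAG line. The median half-life of the 5 was 107 and 112 min, and that of all transcripts was 224 and 226 min. Among the other ERK-induced transcripts, 15 of 18 were below the median in both lines. The deposited half-lives come without an error.

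*Spred2* was the shortest-lived of the 5 in the TAG/+ line, with a half-life of 72.4 min, and only 99 of the 5806 transcripts were shorter. In the TAG/TAG line its half-life was 107 min. *Spry4* had 98.3 and 112 min, and *Spry2* had 107 and 155 min. *Spred1* was the longest-lived, with 196 min in the TAG/+ line and 245 min, above the median, in the TAG/TAG line. These half-lives were all longer in the TAG/TAG line. *Dusp6* alone was shorter there, with 129 min in the TAG/+ line and 93.4 min in the TAG/TAG line, so that it had a longer half-life than *Spred2*, *Spry4* and *Spry2* in the TAG/+ line and the shortest of the 5 in the TAG/TAG line.

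In half-life, the log2 difference between the lines was -0.47 for *Dusp6*, 0.19 for *Spry4*, 0.32 for *Spred1*, 0.53 for *Spry2* and 0.57 for *Spred2*. None of the 5 was past 1.5-fold in either direction, and among all transcripts 10% were past 1.5-fold longer and 10.7% past 1.5-fold shorter in the TAG/TAG line. Over all transcripts the SD of the log2 difference was 0.531, slightly below the differences of *Spry2* (0.534) and *Spred2* (0.570), and 54.1% were longer in the TAG/TAG line.

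The differences in level and in half-life had the same direction in 3 of the 5 genes, *Spry4*, *Spred1* and *Spred2*, and opposite directions in *Dusp6*. In *Spry2* the direction of the level was not resolved. The share of all transcripts with the same direction was not computed, so nothing is read from this count. *Dusp6* had the highest ratio of FPKM and the one half-life that was shorter in the TAG/TAG line. *Spry2* had a half-life 47.9 min longer in the TAG/TAG line and a level that was not detectably different. *Spred2* had both a half-life 35.1 min longer and an FPKM 1.66 times as high. Across 5098 transcripts, which are not independent replicates and share libraries, the log2 differences of half-life and of FPKM had a Spearman's rho of 0.0051. For the 3 genes without a half-life no such statement can be made, which includes *Spry1*.

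**Figure D4:**
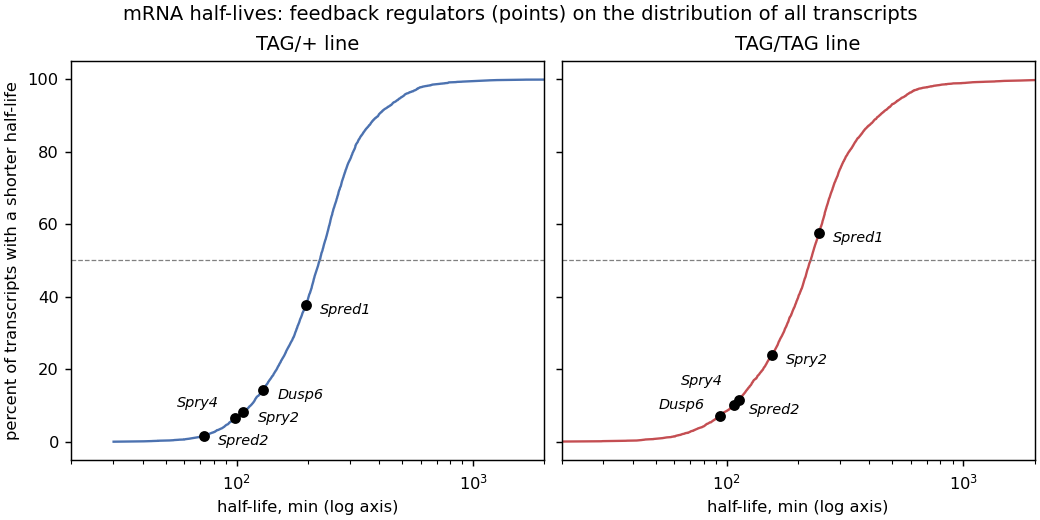
Percent of all transcripts with a shorter half-life against half-life in min (log axis), for the TAG/+ line (left) and the TAG/TAG line (right), with the feedback regulators as points. In each line 4 of the 5 lie below the first quartile of 162 and 159 min, and *Spred1* passes the dashed median, from 196 to 245 min.

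The 3′ UTRs of the 8 genes were read from GRCm38 to show which short motifs linked to mRNA turnover they hold. Motifs were searched on the sense strand only, in the annotated 3′ UTR of 1 coding transcript a gene, and a match is a description of the sequence and not evidence of binding. AUUUA is the core of AU-rich elements, which destabilise many transcripts of growth factor responses. The NANOS2 motif of the study was searched as AUGAAAU and its variants with U at the third base, the sixth base or both, and the PUMILIO motif as UGUANAUA, where N is any base. PUMILIO proteins are partners of NANOS proteins in other animals. There were 0 overlaps between matches of unlike motifs.

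AUUUA was found in all 8 3′ UTRs, 28 times in all, from 1 match in *Dusp5*, *Dusp6* and *Spred2* to 12 in *Spred1*. At least 1 match was also found in 72.6% of all 5781 genes with a half-life and an annotated 3′ UTR, so its presence is common. Among genes with a 3′ UTR of 80% to 125% of the length, that share ranged from 71.5% for *Spry2* to 98.3% for *Spred1*. Since the lengths ranged from 856 nt in *Spry2* to 4330 nt in *Spred1*, matches were also given per 1000 nt. The median over the 8 genes was 1.86, and the median over these 5781 genes was 1.43. *Dusp6*, at 0.841, *Spred2*, at 0.885, and *Dusp5*, at 0.902, were below that median. With its longest annotated 3′ UTR, however, *Spred2* had 4 matches and a density of 1.55, above the median. *Spred1*, the longest-lived, had the highest density, at 2.77, and 82.3% of genes with a 3′ UTR of 80% to 125% of its length had a lower one. The same percentage was 31.8% for *Dusp5*, 32.2% for *Dusp6* and 31.5% for *Spred2*. It was 56.3% for *Dusp4*, 58.7% for *Spry1*, 69.3% for *Spry2* and 56.4% for *Spry4*. Over all 5781 genes AUUUA density and mean half-life had a Spearman's rho of -0.161.

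The AUUUA matches of the Sprouty genes *Spry1* and *Spry2* are shown because their surroundings resemble each other. Both 3′ UTRs hold the 17-base run uguaaagaauauuuauu, at 860 nt from the stop codon in *Spry1* and at 685 nt in *Spry2*. Over the 21 pairs of the 7 genes other than *Spry4*, the median length of the longest shared run was 12 nt, and the only other run of 17 nt, between *Dusp6* and *Spry2*, consisted almost entirely of uridines. The lines below give the sites in GRCm38, 5′ to 3′ as RNA, with AUUUA in capitals. They are in the last exon of each gene, exon 3 of *Spry1* (chr3:37644409-37644438 and chr3:37644441-37644470) and exon 2 of *Spry2* (chr14:105892091-105892120 and chr14:105892052-105892081, minus strand).
Spry1, first site: auuguaaagaauAUUUAuuaugcgaaucuc
Spry1, second site: uuauuuuaugauAUUUAuugcaaaagacug
Spry2, first site: aguguaaagaauAUUUAuuugaaguuuuau
Spry2, second site: aaaaaaaagaauAUUUAuuuuaagaggcau

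The NANOS2 motif was found in 3 of the 8 genes, with 4 matches in *Spred1*, 2 in *Spred2* and 1 in *Spry1*. It was found in none of the 3 phosphatase genes. Among all 5781 genes 41.8% held at least 1 match. Long 3′ UTRs hold it more often, with at least 1 match in 79.4% of genes with a 3′ UTR of like length to *Spred1*, 36.4% for *Spred2* and 35.3% for *Spry1*. At least 4 matches were found in 18.6% of those of like length to *Spred1*, and at least 2 in 10.9% of those of like length to *Spred2*. The study mapped NANOS2 binding itself by CRAC, in which RNA cross-linked to the protein is sequenced, and those data were not used here. The matches of the SPRED genes and *Spry1* are shown because the lines differ in the allele of *Nanos2*, and the motif is in capitals. The matches of *Spred2* overlap each other by 3 bases, in exon 6 (chr11:20022034-20022063), that of *Spry1* is in exon 3 (chr3:37644569-37644598), and the *Spred1* matches shown are in exon 7 (chr2:117178223-117178252 and chr2:117180554-117180583).
Spred2: ccucccuccccAUGAAUUAAUUcacuaaug
Spry1: gcagaaaauauAUUAAUUaaugaaaccggc
Spred1, first match: aacuaaaagggAUUAAUUuuggcauuuuca
Spred1, last match: aaauauugaaaAUGAAAUcaucugaauagc

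The PUMILIO motif was found in 4 of the 8 genes, with 2 matches each in *Dusp6* and *Spry4*, 1 in *Spry2* and 4 in *Spred1*, and in 29.7% of all 5781 genes. Long 3′ UTRs hold this motif more often too. At least 1 match was found in 53.8% of genes with a 3′ UTR of like length to *Spry4* and 54.8% for *Spred1*. For *Dusp6* and *Spry2* the share was 29.0% and 21.1%. *Dusp6*, the gene with the highest ratio between the lines, held 2 matches in 1189 nt, which 6.43% of genes with a 3′ UTR of like length did. Both *Dusp6* matches, and its single AUUUA, are in exon 3 on the plus strand (chr10:99266789-99266818, chr10:99267108-99267137 and chr10:99267420-99267449), and they are shown with the motif in capitals.
Dusp6, first PUMILIO match: uaucugauuauUGUAAAUAuuugaucuuca
Dusp6, second PUMILIO match: ugccuuaccuuUGUAAAUAuuuggcuuaca
Dusp6, AUUUA: uuuugagcuggaAUUUAuuauaagaaugua

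**Figure D5:**
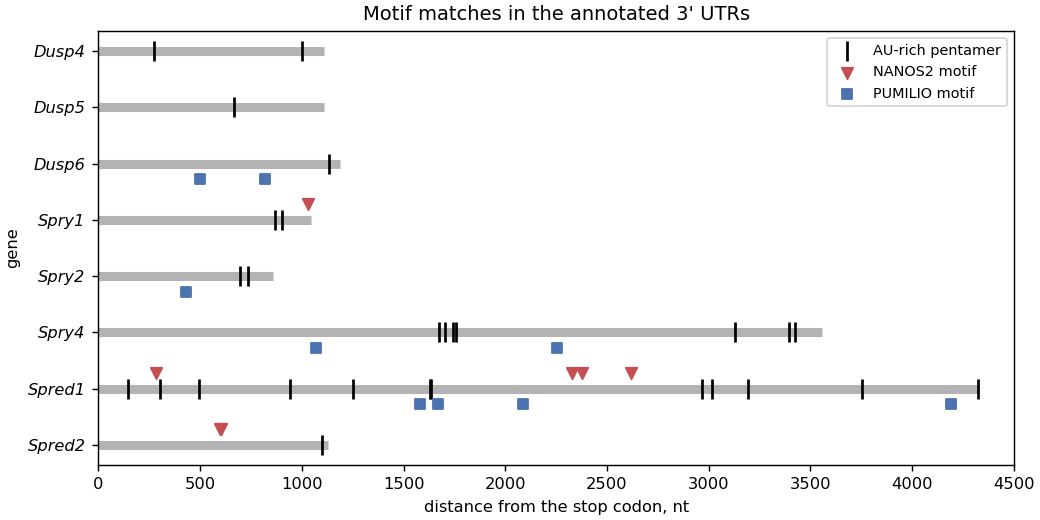
Annotated 3′ UTRs of the 8 genes, drawn to scale as grey bars against distance from the stop codon in nt, with AU-rich pentamers (black ticks), NANOS2 motif matches (red triangles) and PUMILIO motif matches (blue squares). The 28 AU-rich pentamers include 12 in *Spred1*, and the 3 phosphatase genes have no red triangle.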

How the data were processed

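RNA-seq and SLAM-seq values of *Nanos2* TAG/+ (line 4) and *Nanos2* TAG/TAG (line 5) SSC lines were used. The authors deposited FPKM values of 1 library a line, and the submitters' processing notes name kallisto and DESeq2 without a version. The columns GG and Gp were read as TAG/TAG and TAG/+ from their names, which the labels do not spell out, so this assignment is uncertain. Half-lives in min were deposited as 1 value a line, fitted by the authors with SlamDunk conversion rates and a first-order decay after collapse of technical replicates. Their filter and errors are not given in the sources used here. CRAC libraries were not used.

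Reads were recovered by multiplying FPKM by the mean transcript length of GENCODE M21 and the library depth, and were whole within 0.02 for 100% of 13884 genes. They may be rounded estimated counts. The depths set the counting intervals. Differences were taken as log2(FPKM + 0.1), TAG/TAG minus TAG/+, and fold limits were applied on that scale, while printed ratios are of FPKM. Background shares were computed over genes with 50 or more reads in the sum of both libraries. A 3′ UTR was that of the APPRIS principal transcript (GRCm38), which all 8 genes had, or else the longest annotated one. Scripts were tested on simulated data.

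The 8 genes and all gene lists were chosen with earlier results of these data known. Named genes are the 8, and from each other list the highest and lowest difference, those past 2-fold where 5 or fewer, and genes that a result turns on. The 3 genes nearest to each of the 2 most abundant with half-lives were taken by Euclidean distance over 4 values. *Fgfr1*, *Gfra1*, *Egr1*, *Fos*, *Etv4*, *Etv5*, *Epha2*, *Dusp1*, *Dusp7* and *Nanos2* were named after their values were seen. Alternatives were a pseudocount of 1, other scalings, fold limits of 1.5 and 4, no filter, limits of FPKM 1 and 540 min, and the longest 3′ UTR. Python 3.11.15, numpy 2.4.6, pandas 2.3.3 and scipy 1.17.1 were used.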

Additional observations from a re-analysis of the deposited data

How the results depend on the processing

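Over 74 recomputed values, 0 changed direction and 68 kept their size. Many of them had little room to move. Counts, shares, percentiles and numbers of matches cannot change direction, and the other scalings shifted the log2 differences only slightly. The count of the 8 genes past the fold limit, higher in the TAG/TAG line, was 3 at 2-fold, and 1 at 4-fold. The log2 difference of *Spry4* was 1.75 with a pseudocount of 1. When ranked among genes at FPKM 1 or more in each line, the percentile of *Dusp4* was 3.28 in the TAG/+ line and 6.05 in the TAG/TAG line, and that of *Spry4* in the TAG/+ line was 17.4. With the longest annotated 3′ UTR, *Spred2* had 4 AUUUA. Without a filter on reads, 13.5% of all genes were past 2-fold higher and 9.59% lower. No paired analysis was possible because each line had 1 RNA-seq library and 1 deposited half-life per transcript. For the same reason no replicate could be left out, and the spread between cultures is unknown. Counting error limits *Dusp4* and *Spry2* most.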

Other observations

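Of the 8 feedback regulators, *Dusp6* and *Spred2* had the highest mean FPKM among those with half-lives, and the genes most like them over FPKM and half-life in both lines were listed. The distance is Euclidean, in log2 units over 4 values, among 5152 genes. For *Spred2* the nearest gene was *Unkl*, at 0.27, with an FPKM of 21.3 and 39.8 and a half-life of 69.5 and 101 min in the TAG/+ and TAG/TAG lines. *Herpud1* was at 0.36 and *Fos* at 0.45. No gene was as near to *Dusp6*. The nearest was *Foxa2*, at 1.03, with an FPKM of 22.2 and 52.5 and a half-life of 149 and 125 min. *Mad1l1* followed at 1.20 and *Sfi1* at 1.25.

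Half-lives were also listed for the phosphatase gene *Dusp1*, whose expression was not analysed here, at 84.2 min in the TAG/+ line and 80.8 min in the TAG/TAG line. *Dusp9*, in contrast, had half-lives of 419 and 498 min, beyond those of all 5 feedback regulators measured. *Dusp7* had an FPKM of 55.5 and 71.97 and half-lives of 154 and 250 min.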
